A study of Sardinops sagax and Scomber japonicus with 20 samples.

Results

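Keratin genes were followed in the liver RNA sequencing of a fish exposure study with 2 species, the chub mackerel Scomber japonicus and the Pacific sardine Sardinops sagax. The members were all rows of the deposited result table of each species whose human gene symbol begins with KRT and a digit, with the KRTAP and KRTCAP names left out. They came to 29 of 15907 rows: 14 of 6716 in the sardine table and 15 of 9191 in the mackerel table, each under 6 symbols. Both tables had rows for KRT8, KRT17, KRT18 and KRT19, those of KRT5 and KRT15 were in the sardine table alone, and those of KRT16 and KRT222P in the mackerel table alone.

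The study used 20 adult males kept in flow-through seawater at about 17 °C and taken from a supplier of live bait. In each species 5 males spent 5 h in water with 12.5 pM ethinylestradiol (EE2), the synthetic estrogen of contraceptive pills, and 5 unexposed males were the controls. Each table compares these groups once without recording which is the numerator of the fold change, so sides are named here by the sign, positive or negative, and the positive side need not be the same group in both species. RNA came from whole liver, in which fewer cells of a type and less RNA per cell cannot be told apart.

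Keratins are the intermediate filament proteins of epithelial cells. A type I (acidic) keratin pairs with a type II (basic) keratin, the pairs assemble into filaments, and plakins and desmosomes anchor the filaments at the cell edge. In mammals the pair of KRT8 and KRT18 is the keratin set of hepatocytes, KRT19 marks bile duct cells, and KRT5, KRT15, KRT16 and KRT17 are known from skin and other layered epithelia, KRT16 and KRT17 above all after wounding. Fish have many keratin genes of their own, so that 1 human symbol can stand for several fish genes and need not carry the human gene's role.

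Type I keratins outnumbered type II in both tables. The sardine rows were 10 of type I (KRT15, KRT17, KRT18 and KRT19) and 4 of type II (KRT5 and KRT8), each matched to a zebrafish RefSeq transcript, 11 of them curated and 3 predicted records. The mackerel rows were 11 of type I (KRT16, KRT17, KRT18, KRT19 and KRT222P) and 4 of type II, all KRT8, each matched to a fugu gene model and together to 11 fugu genes. Rows under 1 symbol may share near-identical sequence, and no source used here gives how their reads were divided.

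The values behind these rows are few. The deposited means fell on a grid from which whole numbers of reads could be recovered, 1 number for each side in mackerel and, in sardine, 1 number for each of 5 positive-side libraries with 1 for the negative side. Over the solved sardine rows the 5 positive-side libraries held 6488, 5576, 5772, 9066 and 10211 reads, against 7474 on the negative side, so the negative-side number had the depth of 1 library. The library numbers only name them, and which fish each stands for is not known. All mackerel rows together held 376343 reads on the positive side, against 332486 on the negative side, with a median of 4 reads a row over both sides. Mackerel rows with the same pair of numbers had the same deposited fold change and error, so the authors' p-values there hold no spread between fish. They can also lie far below what counting error allows. KRT19 621010, with 6 reads against 22, had an adjusted p of 1.73e-10 (DESeq2), against 0.0128 by an exact two-sided binomial test of the reads. For KRT18 131555, with 254 reads, the order was the other way, at 0.00869 (DESeq2) against 0.000998 (exact two-sided binomial test). In sardine the negative side shows no spread between fish either, and the authors' adjusted p and calls set 5 libraries against 1 number of the depth of 1 library. At equal levels 55.3% of the mackerel reads would lie on the positive side. Intervals below cover counting error only.

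In sardine the deposited fold changes of the keratin rows lay on both sides of 0. The largest difference was that of KRT15, a type I keratin of basal epithelial cells in mammals, whose most abundant row was nearly empty on the positive side. KRT19 and 1 row of KRT8 were also lower on the positive side, while KRT18, the type I keratin of hepatocytes, was higher there. The signs of the last 2 depend on the scaling. Relative to the median of rows with reads on both sides, that KRT8 row stood at 0.042. With the negative-side number counted once, KRT18 stood at -1.20 on the log2 scale. A row is called where the authors' deposited table has an adjusted p under 0.05 (DESeq2, adjusted over the table). By this rule 9 of 14 rows were called, 4 on the positive side, against 5 on the negative side. Of all rows of that table with an adjusted p, 46.5% were called, 30.5% on the positive side, against 16.1% on the negative side. The keratin share of 64.3% is set beside that background without a test, and the calls compare these libraries, with no spread between fish on the negative side.

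KRT8, the type II keratin of simple epithelia, had 3 sardine rows. The most abundant of them, NM_200080.2, had a scaled sum of 164.8 reads over the 5 positive-side libraries, against an estimated 82 reads, or 218 scaled reads, on the negative side. A scaled read is a read times the weight of its library, with the negative-side number counted 5 times to match the 5 libraries. This row was not called, since the authors' deposited table puts its log2 fold change at -0.39 ± 0.28 (standard error) with an adjusted p of 0.208. Its sign depends on the centre: relative to the median over all sardine rows with reads on both sides, -1.21 in the authors' deposited table, it stood at 0.82. Row NM_131156.1 had 6, 7, 1, 3 and 8 reads in the positive-side libraries, against 14 reads on the negative side. Each of the 5 libraries was below the negative-side number, and the authors' deposited table gives -1.17 ± 0.47 (adjusted p 0.0354) for it. Relative to the same median this row stood at 0.042. The predicted row XM_691644.3 had 1, 0, 1, 2 and 4 reads in the positive-side libraries and 0 on the negative side. It was called on the positive side in the authors' deposited table with an adjusted p of 0.0382, on 8 reads in all.

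KRT18, the partner of KRT8, was covered by a single sardine row, NM_178437.2. Its scaled sum was 80.9 reads on the positive side, against an estimated 14 reads, or 37.2 scaled reads, on the negative side. The authors' deposited table has a log2 fold change of 1.10 ± 0.33 for it (adjusted p 0.0054), the one positive call among sardine keratins that rested on reads on both sides. If the negative-side number is counted once against the mean of the 5 libraries, in place of 5 times, the ratio turns to -1.20 on the log2 scale. By the deposited calls the pair did not move as 1 in sardine: KRT18 was called on the positive side, the most abundant KRT8 row was not called, and a smaller KRT8 row was called on the negative side.

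KRT19, known from bile duct cells in mammals, also had 1 sardine row, NM_001077454.1. It held 4, 1, 0, 2 and 3 reads in the positive-side libraries, against 21 reads on the negative side. Each positive-side library was far below the negative-side number. The authors' deposited table gives -3.08 ± 0.55 (adjusted p 1.21e-06), and the ratio of the recovered reads without library 1, which holds 4 of the 10 positive-side reads, was -3.74 on the log2 scale.

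KRT15 had 5 sardine rows. Row NM_213523.1 held 0, 1, 2, 5 and 0 reads in the positive-side libraries, against 155 reads on the negative side. It was the keratin row with the most negative-side reads, 50.8% of the 305 over all 14 rows and 74.2% of the 209 over the type I rows. The authors' deposited table has -6.27 ± 0.54 for this row (adjusted p 5.74e-28), and without library 4, which holds 5 of the 8 positive-side reads, the ratio of the recovered reads was -7.05 on the log2 scale. All 5 positive-side libraries were close to empty, so leaving out any of them could not change the negative sign.

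The other KRT15 rows were small and did not all lie on the same side. Row NM_001040359.1 had 1, 0, 1, 0 and 0 reads in the positive-side libraries, against 6 on the negative side, and the authors' deposited table gives -3.48 ± 1.08 (adjusted p 0.00729). The predicted row XM_678850.2 had 0, 0, 0, 0 and 1, against 5 reads on the negative side, with -4.14 ± 1.40 in the authors' deposited table (adjusted p 0.0133). Both were called on the negative side, as the most abundant row was. Row NM_001017824.1 had 8, 0, 0, 2 and 1 reads in the positive-side libraries and 0 on the negative side. It was called on the positive side in the authors' deposited table (adjusted p 0.0354), with 8 of its 11 reads in library 1. Row NM_001114342.1 held 1, 0, 1, 0 and 1 reads in the positive-side libraries and 0 on the negative side, and was not called, the authors' deposited table having 0.132 as its adjusted p. Summed over the 5 rows, KRT15 had 17.0 scaled reads on the positive side, against 441 on the negative side.

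KRT17, a keratin of wounded skin in mammals, showed no common direction over its 3 sardine rows. Row NM_001076654.1 had 1, 2, 1, 1 and 4 reads in the positive-side libraries, against 6 on the negative side, and was not called in the authors' deposited table at -1.43 ± 0.67 (adjusted p 0.0717). Row NM_001003445.1 had 6, 0, 1, 0 and 4 reads in the positive-side libraries and 0 on the negative side, with an adjusted p of 0.0343 in the authors' deposited table. Row NM_001002383.1 had 1 read in positive-side library 3 and none in the other 4, against 2 reads on the negative side. It was not called in the authors' deposited table (-2.81 ± 1.50, with 0.0891 as the adjusted p).

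KRT5, the type II partner of basal cells, had the predicted row XM_001921885.1 with 0, 2, 1, 2 and 0 reads in the positive-side libraries and 0 on the negative side. With an adjusted p of 0.0877 in the authors' deposited table it was not called.

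In all, 5 sardine keratin rows had 0 reads on the negative side, and 3 of the 4 positive calls were among them. They rested on 3 to 11 reads over the 5 positive-side libraries, or 2.15 to 7.72 scaled reads. This lies under the 7.97 scaled reads that a floor of 3 reads on the negative side amounts to, so no fold can be given for any of them. The fold changes of 3.79 to 5.50 in the authors' deposited table are fitted values for these rows.

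Under stricter rules fewer sardine keratin rows were called. With reads on both sides, 6 of 9 sardine keratin rows were called, 1 on the positive side, against 5 on the negative side, beside 37.6% of all such rows (13.2% on the positive side, against 24.4% on the negative side). At a mean normalized count of at least 10, 3 of 4 keratin rows were called: KRT18 on the positive side, against KRT15 NM_213523.1 and KRT19 on the negative side. Of all sardine rows with such a mean 79.9% were called, 49.5% on the positive side, against 30.4% on the negative side, so most rows of this depth were called in that table.

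**Figure D1:**
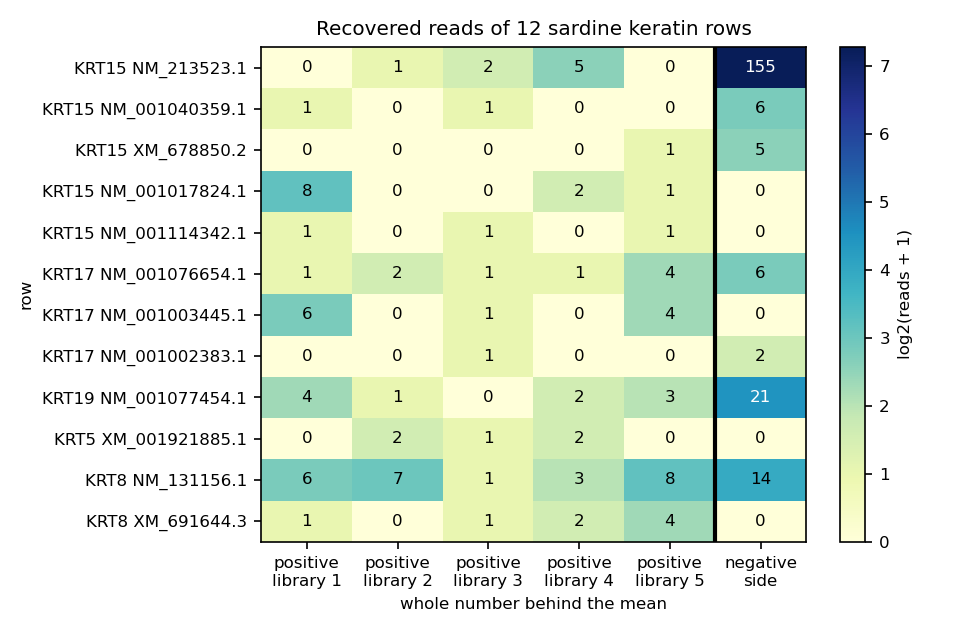
Recovered reads of the 12 sardine keratin rows that could be solved, with 1 column for each of the 5 positive-side libraries and 1 for the negative side; colour gives log2(reads + 1) and the digits the reads. The 155 negative-side reads of KRT15 NM_213523.1 stand against 0 to 5 in the positive-side libraries, and 5 rows have 0 negative-side reads.

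In mackerel most keratin rows held few reads, and the sizes of their deposited fold changes are not comparable with those of sardine. A transcript of KRT18 with most of the keratin reads was higher on the positive side, while a second transcript of the same fugu gene and KRT19 were lower there. The authors' deposited table has an adjusted p for 12 rows, of which 4 were called, 1 on the positive side, against 3 on the negative side. The share of 33.3% stands beside 24.8% of all rows of that table with an adjusted p, of which 14.1% were called on the positive side, against 10.8% on the negative side. An exact two-sided binomial test of the recovered reads, adjusted over all rows, called 3 keratin rows, 1 on the positive side, against 2 on the negative side, which is set beside 4.07% of all rows (2.07% on the positive side, against 2.0% on the negative side). Only 6 of the 15 rows had at least 10 reads over both sides.

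KRT18 had 5 mackerel rows, from 2 fugu genes. Row 131555, of gene ENSTRUG00000011921, had 174 reads on the positive side, against 80 on the negative side. Scaled for depth this is a ratio of 1.76 (95% interval 1.34 to 2.32; exact two-sided binomial test, adjusted p 0.000998), and the authors' deposited table gives a log2 fold change of 0.78 ± 0.24 (adjusted p 0.00869). Row 613792, another transcript of the same gene, had 9 reads on the positive side, against 24 on the negative side. Its ratio was 0.303 (95% interval 0.124 to 0.676; exact two-sided binomial test, adjusted p 0.0365), with -1.47 ± 0.23 in the authors' deposited table (adjusted p 1.05e-08). The intervals of these transcripts lie on opposite sides of 1 and do not overlap. Summed, the gene had 183 reads on the positive side, against 104 on the negative side.

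The second fugu gene of KRT18, ENSTRUG00000014220, had 3 rows, none of them called, with 23 reads on the positive side, against 18 on the negative side. Row 157322 had 10 reads on the positive side against 4 on the negative side, a ratio of 2.02 (95% interval 0.583 to 8.83). Row 710659 had 11 reads on either side and a ratio of 0.809 (95% interval 0.318 to 2.06). Row 612912 had 2 reads on the positive side against 3 on the negative side. The intervals of the first 2 rows include both a doubling and no difference, so these rows do not separate the sides at this depth.

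KRT19 had 1 mackerel row, 621010, with 6 reads on the positive side against 22 on the negative side. The ratio was 0.221 (95% interval 0.0732 to 0.561; exact two-sided binomial test, adjusted p 0.0128), and the authors' deposited table gives -1.78 ± 0.25 (adjusted p 1.73e-10). It was the lowest fold change among the 15 mackerel keratin rows.

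KRT8 had 4 mackerel rows, each from a different fugu gene, and none was called. Row 710661 had 6 reads on the positive side against 9 on the negative side, a ratio of 0.539 (95% interval 0.158 to 1.70), and the authors' deposited table has -0.70 ± 0.28 (adjusted p 0.0536). Row 613829 had 3 reads on either side. Rows 621306 and 735465 each had 0 reads on the positive side, against 2 on the negative side, and the same -1.06 ± 0.45 in the authors' deposited table (adjusted p 0.0627). Altogether KRT8 had 9 reads on the positive side, against 16 on the negative side.

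The keratins of layered epithelia were close to empty in mackerel. KRT16, row 596349, had 0 reads on the positive side against 3 on the negative side. It was called in the authors' deposited table at -1.34 ± 0.44 (adjusted p 0.0125), a value that it shares with every one of the 95 rows with this pair of numbers, and the exact two-sided binomial test gave an adjusted p of 0.71. KRT17 had 3 rows, of which 625076 had 1 read on the positive side against 2 on the negative side, and 562804 and 301051 had 0 on the positive side against 1 on the negative side. Row 301051 belongs to the same fugu gene as KRT16, ENSTRUG00000000933, which held 0 reads on the positive side, against 4 on the negative side over both. KRT222P, row 555061, had 1 read on the positive side, against 0 on the negative side. The authors' deposited table has no adjusted p for the 3 rows of a single read. At a looser adjusted p under 0.1, 8 of the 12 tested keratin rows passed, 2 on the positive side, against 6 on the negative side, beside 35.0% of all rows with an adjusted p (17.2% on the positive side, against 17.8% on the negative side). The added ones were KRT18 157322 on the positive side and KRT8 rows 710661, 621306 and 735465 on the negative side.

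**Figure D2:**
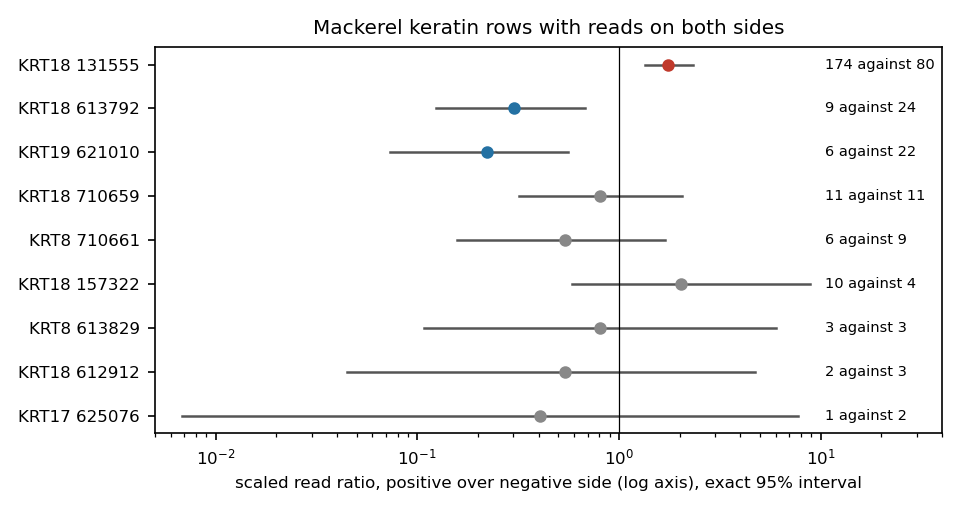
Ratio of recovered reads, positive over negative side and scaled for depth, on a log axis with exact 95% intervals, for the 9 mackerel keratin rows with reads on both sides; the reads of the positive side against the negative side stand at the right. Red marks a call on the positive side, blue a call on the negative side and grey no call, by the deposited adjusted p; the exact two-sided binomial test called the same 3 rows. KRT18 131555 lies above 1 at 1.76, and KRT18 613792 and KRT19 621010 lie below it at 0.303 and 0.221.

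Between the species, the deposited fold changes of the 4 shared symbols KRT8, KRT17, KRT18 and KRT19 had the same signs in their most abundant rows. Of the sardine signs, that of KRT8 turned on another centre and that of KRT18 with the negative-side number counted once, at 0.82 and -1.20 as above. No test of a species difference could be made, since each table is a fit of its own. For KRT18 the most abundant row was called on the positive side in both, at 1.10 ± 0.33 in sardine and 0.78 ± 0.24 in mackerel in the authors' deposited table. For KRT19 both rows were called on the negative side, at -3.08 ± 0.55 in sardine and -1.78 ± 0.25 in mackerel in the authors' deposited table. The plain ratio of the recovered reads was -3.11 in sardine and -2.18 in mackerel on the log2 scale. Sizes are thus not comparable between the deposited values of the 2 species. For KRT8 the rows with reads on both sides had negative fold changes of -0.39 and -1.17 in sardine and of -0.70 and -0.25 in mackerel in the authors' deposited table, and 1 of these 4 was called. KRT17 was called once in the 2 species, in a sardine row with 0 negative-side reads. Its most abundant rows were not called. The authors' deposited table has them at -1.43 ± 0.67 in sardine and, on 3 reads, at -0.60 ± 0.42 in mackerel. A like sign does not mean a like response to EE2, as the numerator is not recorded for either table.

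**Figure D3:**
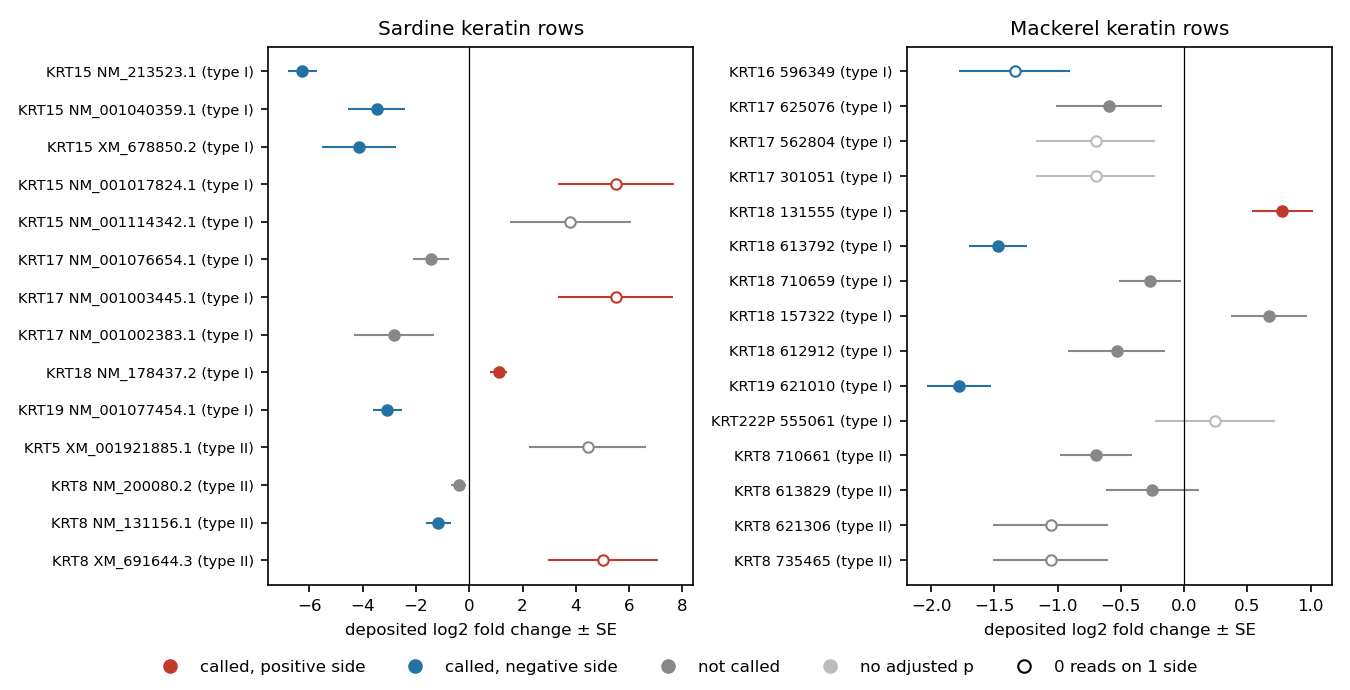
Deposited log2 fold change with its standard error for each keratin row of sardine (left) and mackerel (right), with type I keratins above type II. Filled points have reads on both sides and open points 0 reads on 1 side; red marks calls on the positive side, blue calls on the negative side, dark grey rows not called and light grey rows with no adjusted p. The axes differ: sardine rows span -6.27 to 5.50 and mackerel rows -1.78 to 0.78. The spans are not comparable, as mackerel values of few reads are drawn in and sardine values are not.

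By type, the 10 sardine rows of type I had a median of -2.12 among the log2 fold changes of the authors' deposited table, with 3 called on the positive side, against 4 on the negative side. The 4 rows of type II had a median of 2.03 in the authors' deposited table, with 1 called on each side, while the median over all its sardine rows was -0.19. The positive sign for type II came from KRT5 XM_001921885.1 and KRT8 XM_691644.3, which had 0 negative-side reads. Both are predicted records, and such records mostly had none there. Of all sardine rows, 1821 of 2199 predicted records had 0 negative-side reads, against 892 of 4517 curated records. The median log2 fold change was 4.95 over predicted and -1.04 over curated records, so these 2 positive values are not particular to keratins. With such rows set to the bound that a floor of 3 reads allows, the type II median was -0.20 and that of type I stayed -2.12. In scaled reads type I summed to 118.6 on the positive side against 555 on the negative side, and type II to 190 on the positive side against 255 on the negative side. Without KRT15 NM_213523.1 the type I rows held 54 negative-side reads in place of 209, at 2.66 scaled reads each. Their positive side then held 113.6 scaled reads, still below the scaled negative side. On the log2 scale this difference is smaller than the median of -1.21 over sardine rows with reads on both sides, so its sign depends on the centre.

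In mackerel the 11 rows of type I had a median of -0.60 in the authors' deposited table, with 1 called on the positive side, against 3 on the negative side, and the 4 rows of type II a median of -0.88 with 0 called, while the median over all mackerel rows was 0.04. At the bound these medians became 0 and -0.13. In unscaled reads type I summed to 214 on the positive side against 151 on the negative side. Type II had 9 on the positive side against 16 on the negative side. At equal levels 55.3% of the reads would lie on the positive side, and these totals were not tested. The type I total rests on KRT18 131555, which holds 78.0% of the 223 positive-side and 47.9% of the 167 negative-side keratin reads. Without it the 14 other keratin rows held 49 reads on the positive side against 87 on the negative side. The types were not tested against each other, since rows of a type are not replicates.

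The proteins that keratin filaments attach to had few reads in most rows. For this and the later lists, the share called over all rows with an adjusted p was 46.5% in sardine and 24.8% in mackerel. Of 9 sardine rows for desmosomal proteins and plakins, 8 had 0 negative-side reads, and 3 rows were called on the positive side, against 1 on the negative side. All 8 are predicted records, of which 1821 of 2199 over the whole sardine table had 0 negative-side reads. Their positive signs are therefore not particular to this list. The row with reads on both sides was the cytoskeletal linker PLEC, NM_001100032.1, with 12.1 scaled reads on the positive side against 71.7 scaled reads, or 27 reads, on the negative side. The authors' deposited table gives -2.59 ± 0.67 for it (adjusted p 0.00105). In mackerel 1 of 13 such rows with an adjusted p was called, the junction protein JUP in row 617239, with 9 reads on the positive side against 2 on the negative side and 1.07 ± 0.34 in the authors' deposited table (adjusted p 0.0106). The exact two-sided binomial test did not call it (adjusted p 0.866). The 19 mackerel rows of this list together held 46 reads on the positive side, against 34 on the negative side.

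Among adherens and tight junction genes, 3 of 17 sardine rows were called on the positive side, against 3 on the negative side. Beta-catenin CTNNB1, which links cadherins to actin, was at -1.64 ± 0.20 in the authors' deposited table of sardine (adjusted p 2.46e-13), the tight junction protein CGN -4.94 ± 1.34 and the claudin CLDN3 -1.99 ± 0.68. The positive calls, CTNND1 and TJP1 among them, had 0 negative-side reads and were all predicted records. In mackerel 1 of 19 rows with an adjusted p was called on the positive side, against 3 on the negative side. Beta-catenin was the positive one there, with 11 reads on the positive side against 4 on the negative side in row 755678, and the cadherin CDH1 and the catenin CTNNA1 were among the negative ones. The 24 mackerel rows of this list held 144 reads on the positive side against 153 on the negative side, and the exact two-sided binomial test called 0 of them.

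The other intermediate filament genes of sardine had a median of -3.84 over 13 rows in the authors' deposited table, beside -0.78 over the 14 keratin rows (-3.84 and -2.81 over rows with reads on both sides, -2.16 and -0.78 with rows at 0 at their bound), with 2 rows called on the positive side, against 7 on the negative side. The muscle filament gene DES in row NM_001077452.1 had 1 positive-side read against 456 reads on the negative side. The mesenchymal filament gene VIM in row NM_131872.2 had 1 positive-side read against 19 reads on the negative side. In mackerel the 7 rows of this list held 4 reads on the positive side, against 7 on the negative side, and 1 row of 2 with an adjusted p, the neurofilament gene NEFM, was called on the negative side by the authors' adjusted p and not by the exact test.

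Markers of several cell types also differed between the sides in sardine. DES of the striated muscle list and VIM of the mesenchyme list also stand among the other intermediate filament genes, so their calls are counted in both. Of the marker rows, 22 of 29 for striated muscle, 10 of 13 for hepatocytes and 3 of 8 for mesenchyme had a mean of at least 10. Of all sardine rows with such a mean 79.9% were called, 49.5% on the positive side, against 30.4% on the negative side. Of 29 rows for striated muscle 1 was called on the positive side, against 24 on the negative side, with sums of 75.7 scaled reads on the positive side against 26516 on the negative side. Of 8 mesenchyme rows 0 were called on the positive side, against 7 on the negative side, with 32.0 scaled reads on the positive side against 369 on the negative side. Hepatocyte markers, those of the labelled tissue, lay on the side of KRT18, with 12 of 13 rows called on the positive side, against 0 on the negative side, and 132657 scaled reads on the positive side against 27316 on the negative side. Of these rows 5 had 0 negative-side reads, and the median of the 8 others was 1.97. Counting the negative-side number once lowers every sardine value by 2.32, which is more than this median. Surface epithelium markers, the cells in which KRT15 and KRT5 are known, had 3 rows for 14 genes, at 3.96 scaled positive-side reads against 7.97 on the negative side, and 1 row, the crosslinking enzyme TGM1, was called on the negative side on 2 reads; TP63 and SFN had no row among those analysed here. Bile duct markers had 6 rows for 4 of 11 genes, 2 of them called on the positive side, against 1 on the negative side, at 105 scaled reads on the positive side against 21.3 on the negative side, of which 1 row, ANXA4 XM_001331775.2 with 0 negative-side reads, held 76.3 of the positive side; without it the positive side held 29.1. The water channel AQP1 was the negative call. EPCAM and SOX9 had no row among those analysed here. The part of these cell types in the keratin values was not tested.

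In mackerel the same lists had fewer calls by the authors' adjusted p. The read totals given for them are unscaled, and at equal levels 55.3% of the reads would lie on the positive side. Over all mackerel rows 24.8% of those with an adjusted p were called, and 4.07% of all rows by the exact two-sided binomial test. Hepatocyte rows held 51623 reads on the positive side against 57199 on the negative side, with 1 of 15 rows called on the positive side, against 4 on the negative side; the exact two-sided binomial test called 2 on the positive side, against 8 on the negative side. Striated muscle rows held 56 reads on the positive side against 106 on the negative side, and mesenchyme rows 23 on the positive side against 37 on the negative side. Of 14 muscle rows with an adjusted p, 2 were called on the positive side, against 3 on the negative side. Of 7 such mesenchyme rows 1 was called on the positive side, against 3 on the negative side. By the exact two-sided binomial test 0 were called on the positive side, against 2 muscle rows and 1 mesenchyme row on the negative side. Muscle row NRAP 613584 had 3 reads on the positive side against 45 on the negative side (exact test, adjusted p 1.06e-10). Bile duct rows held 343 reads on the positive side against 275 on the negative side, and 6 of 9 rows had a positive sign. The 1 call of 6 with an adjusted p, the annexin ANXA4, was on the negative side and was not called by the exact test. Surface epithelium rows held 4 reads on the positive side, against 3 on the negative side. Their part in the keratin values was not tested either.

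**Figure D4:**
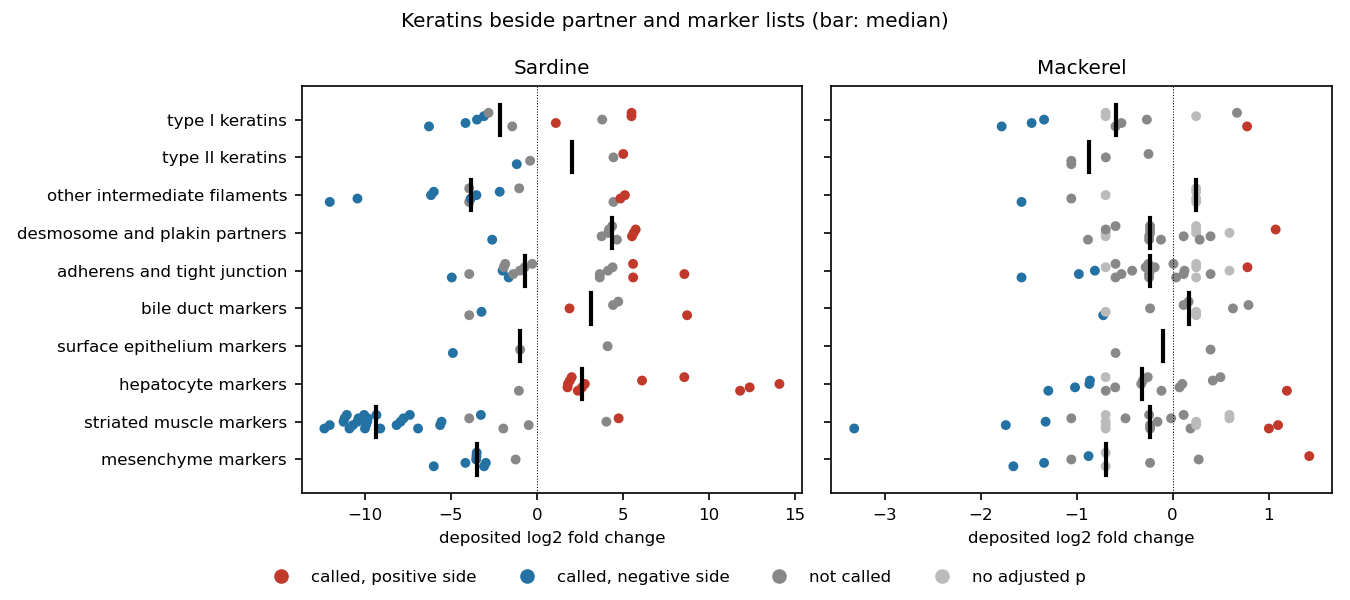
Deposited log2 fold change of each row for type I and type II keratins and 8 other gene lists in sardine (left) and mackerel (right); a point is a row, coloured as called on the positive side (red), called on the negative side (blue), not called (dark grey) or with no adjusted p (light grey), and the bar is the median of the list. In sardine the median is -9.32 for striated muscle, -2.12 for type I keratins and 2.63 for hepatocyte markers; that of desmosome and plakin partners, 4.37, is over fitted values, 8 of 9 rows having 0 negative-side reads, and is 0 with such rows at their bound. The axes differ between the panels, and mackerel values of few reads are drawn in while sardine values are not.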

How the data were processed

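Each species had 1 result table, for 5 exposed and 5 control livers. Per the file headers the deposited values are a signal (the mean normalized count), a log2 fold change with its standard error (log2), the Wald statistic (a score) and a p-value, raw and adjusted. CASAVA 1.8, DESeq2 and the zebrafish build GRCz10 are named per the submitters' processing notes; of aligner, counting, filters and numerator nothing is stated in any source used here. The tables hold no coordinates and no values per fish.

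Whole reads were recovered from the means in Python 3.11.15 (numpy 2.4.6, pandas 2.3.3, scipy 1.17.1). Mackerel means were 0.455 per positive-side read plus 0.563 per negative-side read plus 1.66, which solved 9191 of 9191 rows, 9186 of them with a single pair of whole numbers, to within 3.45e-06. Mackerel fold changes of low rows were fitted as -0.28 plus a log2 ratio, with 2.67 positive-side and 2.55 negative-side reads added. Sardine means took 5 positive-side weights and 1 negative-side weight, which gave a single solution in 5123 of 5123 rows with a mean of at most 5. Of the 14 sardine keratin rows 12 were solved, and for 2 the negative-side number was estimated from mean and fold change. KRT15 NM_213523.1, KRT19 NM_001077454.1 and KRT8 NM_131156.1 have means above 5. They were solved only among negative-side numbers near the one estimated in this way. Their recovered reads are therefore not independent of the deposited fold change. In 319 solved rows the estimates from mean and fold change were within 1 read. Over 812 rows the deposited fold change differed from the log2 ratio of summed scaled positive-side reads to scaled negative-side reads by a median of 0.01 (-0.21 to 0.37). A negative-side read weighs 2.66 there, or 0.531 if that number stands in 5 equal columns, against 0.492 to 0.852 for a positive-side read. With 5 such columns the geometric mean of the library scales was 1.01, against 1.19 with 1 column; DESeq2's scales lie near 1. The scaling was therefore read as 5 equal columns, which the tables do not state. Recovery was tested on simulated data, in sardine only for means of at most 5.

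Rows with an adjusted p under 0.05 in the authors' deposited table are called. Mackerel reads were also compared by an exact two-sided binomial test against a positive-side share of 55.3%, with Benjamini-Hochberg adjustment over 9191 rows. Reads made by PCR are not independent molecules. Every keratin row is named, and of the other lists only called rows. Of the symbols found, KRT15 to KRT19 and KRT222P are type I, KRT5 and KRT8 type II. The keratins and the 8 lists were chosen with earlier results of these data known. Alternatives were the threshold, the rows used, the treatment of rows at 0, the centring, the form of the ratio and each positive-side library left out.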

Additional observations from a re-analysis of the deposited data

Results flagged for a closer look

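Over the 5 positive-side sardine libraries, 3 of the 12 solved keratin rows had a library far from the other 4, by the gap to the nearest of the others over the whole range against a critical value of 0.71. Its chance rate of about 1 in 20 is for normally distributed values and does not hold for low counts with ties. The 3 rows are therefore not set against that rate. KRT15 XM_678850.2 and KRT17 NM_001002383.1 each reached 1, because each has a single read in 1 library and 0 in the other 4. KRT15 NM_001017824.1 reached 0.8416, with 8 of its 11 reads in library 1, and this row was called on the positive side against 0 negative-side reads.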

How the results depend on the processing

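No paired analysis was possible because the tables hold no values per fish and the labels give no numbers that pair exposed with control fish. With a mean of at least 10 the sardine calls fell to 3 of the 9, 1 on the positive side against 2 on the negative side, and 1 positive call was left where both sides had to hold reads. At an adjusted p under 0.1 the mackerel calls numbered 8, 2 on the positive side against 6 on the negative side. The sardine type II median of 2.03 became -0.20 with rows at 0 at their bound, -0.78 where both sides held reads and -0.39 at the higher mean. The mackerel medians of type I and type II became 0 and -0.13 at the bound. Curated records alone, at least 10 reads, 1 row per fugu gene and the exact test moved no count of keratin calls by more than 1.5 times. Of the 11 curated sardine keratin rows 7 were called, 3 on the positive side against 4 on the negative side. Over all curated sardine rows with an adjusted p, 1854 of 4463 (41.5%) were called, 881 on the positive side against 973 on the negative side. Predicted records had 1129 of 2137 called on the positive side, against 88 on the negative side. Relative to the sardine rows with reads on both sides, whose median was -1.21, KRT8 NM_131156.1 stood at 0.042 and KRT8 NM_200080.2, which was not called, at 0.82, so neither negative sign holds on that centre; KRT19 stood at -1.87, KRT15 NM_213523.1 at -5.06 and KRT18 at 2.31. Dividing the mean of the 5 positive-side libraries by the negative-side number as 1 column lowers every sardine value by 2.32 and puts KRT18 NM_178437.2 at -1.20. These alternatives, the left-out libraries and the row per fugu gene were chosen after seeing the data. Without each positive-side library in turn, the 7 solved sardine rows with reads on both sides remained negative wherever positive-side reads were left. In these rows every positive-side library lay below the negative-side number, read as equal columns, so the sign could not change. KRT15 NM_213523.1 ranged from -7.05 to -6.06, KRT19 from -3.74 to -2.79, KRT8 NM_131156.1 from -1.41 to -0.91 and KRT15 NM_001040359.1 from -4.04 to -2.97. The negative side has 1 number and could not be left out. Rows of 11 reads or fewer limit most keratin values.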
